A study of Mus musculus with 48 samples.

Results

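Sodium butyrate (NaB, 1 mM) and trichostatin A (TSA, 10 nM) are inhibitors of histone deacetylases, and their RNA profiles in STHdhQ111 cells were set against each other and searched for genes that moved alike in both. The 2 compounds account for 6 of the 48 libraries of the series, 3 each. STHdh cells are an immortalised line of mouse striatal neuronal progenitors with a huntingtin knock-in allele of either an expanded (Q111) or a normal (Q7) polyglutamine length. All libraries but 3 came from STHdhQ111 cells, each given 1 of 14 compounds or vehicle (DMSO) for 24 h in medium without serum. They are cultures of 1 line per genotype and the p-values measure the spread between these libraries only, which may be technical. Vehicle-treated STHdhQ111 cells are the control of every compound, and the other 3 libraries are STHdhQ7 vehicle cells, the only ones with the normal allele.

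Histone deacetylases remove acetyl groups from lysines of histones and other proteins, and the zinc-dependent enzymes work in corepressor complexes that keep genes silent. Butyrate is a short-chain fatty acid made by gut bacteria that inhibits these enzymes at millimolar concentrations and can also be burned as fuel, whereas TSA is a hydroxamic acid that binds the catalytic zinc at nanomolar concentrations. Both have been tested in models of Huntington's disease, where mutant huntingtin interferes with histone acetylation and with the control of REST, the silencer of neuronal genes. Doses of the 2 compounds are not matched in units or in potency, so every difference between them below holds for these doses alone. The 2 molecules share no close structural kinship, and no structural comparison was made.

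The 3 replicates of each compound compared here were collected on 3 days, each at 1 of 3 times. The combination of day and time is called a slot here. NaB and TSA share no slot. The NaB slots were shared with nicotinamide (Nico, 0.5 nM) and nortriptyline (Nort, 1 nM), and the TSA slots with haloperidol (Halo, 0.5 nM), all 3 applied at low nanomolar doses. Each inhibitor was therefore compared with the libraries of its own slots: NaB with the mean of Nico and Nort, and TSA with Halo. These references hold no vehicle-only cells, so a difference is from cells given another compound in the same slot. A gene was said to move alike when it passed the threshold in the same direction in both of these comparisons, which have no library in common. The direct difference (NaB minus TSA) and the slot-adjusted difference (the NaB difference minus the TSA difference) were tested beside them.

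The table held normalised log2 abundances of 27281 genes, of which 18178 carried a symbol. Tests were run on the 13409 of these whose average over all libraries reached 1. Counts were not in the table and the depth is unknown. The highest total of the back-transformed values was 1.11 times the lowest, so no library stood out by its total. Replicates of each inhibitor correlated at 0.9985 or more across genes. Among the markers, 7 of 10 neural progenitor genes reached the mean of 1, with Vim (vimentin) at 15.42, while Nes (nestin) was at 5.51. Of 12 striatal neuron markers 5 reached it, of 7 oligodendrocyte markers 2, of 7 microglia markers 3, of 6 endothelium markers 2, of 7 astrocyte markers 5 and of 7 fibroblast markers 5. Col1a1, the collagen that marks fibroblasts, was at 14.52. In these bulk libraries fewer cells of a type and less RNA per cell cannot be told apart.

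One reference library stood apart. Over the 20 genes that were more than 4 log2 units higher in STHdhQ7 than in STHdhQ111 vehicle cells, haloperidol replicate 2 had a median of 5.80, against 3.91 and 4.14 in the other haloperidol libraries, 3.58 to 4.17 in the other 44 STHdhQ111 libraries and 9.40 to 10.19 in the STHdhQ7 libraries. In 19 of those 20 genes it was the highest of all STHdhQ111 libraries. Nes, for example, was at 7.14 in this library and at 4.88 and 5.03 in the other two haloperidol libraries. What set it apart was not tested. Results that rest on haloperidol use all 3 libraries, and the counts of calls and named calls that changed are given again without this one.

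Promoters of 3 genes are shown first because they belong to the genes that head the results: L1cam rose most in both inhibitors by the rule for named genes, Cyp26b1 fell most, and Cdkn1a is the classic target of deacetylase inhibitors. The sequences are from RefSeq on GRCm38.p6 and read 5′ to 3′ along the gene. Each ends at the last base before the RefSeq start or before an annotated untranslated region. By the GENCODE positions given below, the L1cam window lies within the gene, and the upstream Cdkn1a window runs past the gene start. Capitals mark the GC box, GGGCGG or its reverse complement CCGCCC, to which Sp1-family factors that recruit deacetylases bind.
L1cam (chrX:73880835-73881084, minus strand, the farther upstream of 2 listed starts): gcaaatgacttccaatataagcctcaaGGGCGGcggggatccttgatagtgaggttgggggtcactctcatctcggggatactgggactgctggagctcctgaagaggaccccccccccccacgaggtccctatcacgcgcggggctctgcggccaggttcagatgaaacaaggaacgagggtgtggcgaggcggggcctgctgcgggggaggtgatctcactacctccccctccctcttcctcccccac
Cyp26b1 (chr6:84593909-84594060, minus strand): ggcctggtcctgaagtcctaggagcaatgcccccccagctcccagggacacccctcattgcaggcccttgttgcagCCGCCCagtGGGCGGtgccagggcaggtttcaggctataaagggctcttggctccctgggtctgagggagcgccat
Cdkn1a, upstream start (chr17:29090729-29090978, plus strand): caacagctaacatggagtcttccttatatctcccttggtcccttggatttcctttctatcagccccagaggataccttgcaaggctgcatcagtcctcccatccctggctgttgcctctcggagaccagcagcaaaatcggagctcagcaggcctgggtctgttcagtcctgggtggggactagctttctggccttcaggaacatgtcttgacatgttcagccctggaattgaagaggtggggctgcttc
Cdkn1a, downstream start (chr17:29093519-29093768, plus strand): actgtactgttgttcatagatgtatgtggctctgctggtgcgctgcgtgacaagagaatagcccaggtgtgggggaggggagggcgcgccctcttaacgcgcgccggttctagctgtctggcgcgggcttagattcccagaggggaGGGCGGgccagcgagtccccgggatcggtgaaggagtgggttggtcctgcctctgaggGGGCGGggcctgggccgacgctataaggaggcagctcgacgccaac

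The L1cam window of 250 bases held 1 GC box, 1 CCAAT box (CCAAT on either strand) and 12 CpG dinucleotides, with a GC content of 63.2%. The 152 bases of Cyp26b1 held 2 GC boxes, 3 CpG and no CCAAT box. At Cdkn1a the upstream window held no GC box and 2 CpG, and the downstream window held 2 GC boxes and 19 CpG. Of all 27025 promoters in the RefSeq table, 32.9% held a GC box and 34.5% a CCAAT box on either strand, so the motifs are common and a match here is a description only. A comparison of these motifs between genes that rose and fell was void, since only 76.1% of the genes that rose in both had a promoter in the table.

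NaB moved more genes than TSA at these doses. Against its slot reference NaB passed the threshold (limma, Benjamini-Hochberg adjusted p under 0.05 over all genes tested) in 4132 genes, 2284 higher (17% of those tested) and 1848 lower (13.8%). TSA passed it in 1492 genes, 785 higher (5.85%) and 707 lower (5.27%), and in 1033 genes (574 higher and 459 lower) without haloperidol replicate 2. Most of the changes were small: 359 of the NaB genes and 133 of the TSA genes differed by more than 0.5 log2 units, and 26 and 4 by more than 1. The reference of NaB has 6 libraries and that of TSA 3, so the median half-width of the 95% interval of a difference was 0.123 log2 units for NaB and 0.142 for TSA. TSA replicate 1 lay farthest from its reference in 336 of the 507 genes that rose in both and in 217 of the 334 that fell, and without it TSA passed in 584 genes.

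The genes that passed in both moved together. In all, 507 genes (3.78% of those tested) were higher and 334 (2.49%) were lower in both inhibitors, and 21 (0.157%) were called in opposite directions. Of the 862 genes called in both, 97.6% thus had the same direction. The shared risen genes were 64.6% of those risen with TSA and 22.2% of those risen with NaB, and the shared fallen genes were 47.2% and 18.1% of the corresponding lists. Without haloperidol replicate 2 there were 393 risen, 235 fallen and 9 opposite genes, with 98.6% in the same direction, and 358 of the risen and 224 of the fallen genes were among the first set. Without TSA replicate 1, 343 genes moved alike. In the plot of both differences the shared genes lie along the diagonal, at the upper right and the lower left.

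**Figure D1:**
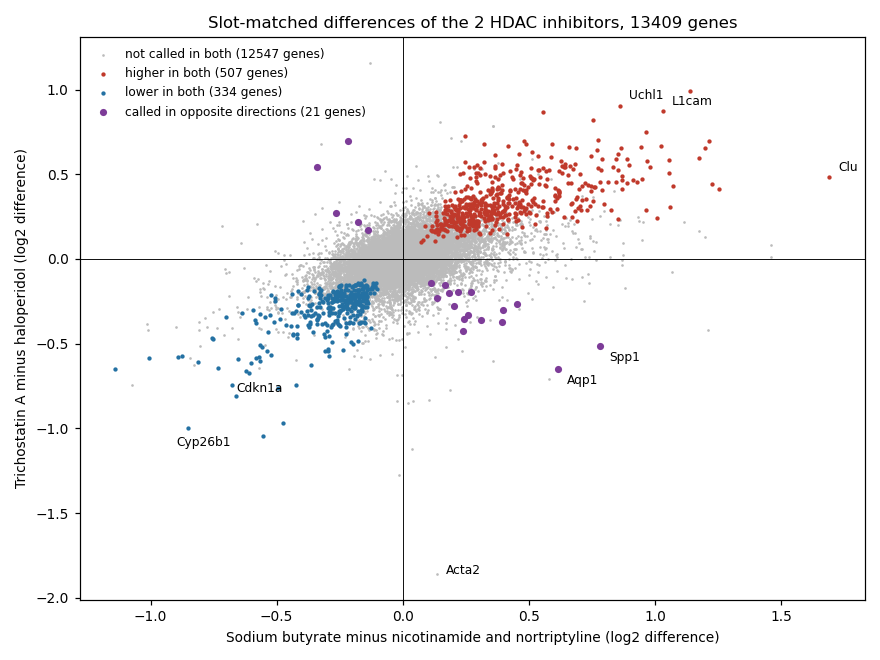
Each point is 1 of the 13409 genes tested, with the difference of sodium butyrate from its slot reference on the x axis and that of trichostatin A on the y axis, both in log2 units. The 507 genes higher in both are red, the 334 lower in both are blue and the 21 called in opposite directions are purple, and for Acta2, at the bottom, the trichostatin A difference is -1.86 with all libraries and -0.66 without haloperidol replicate 2.

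Among these genes, which were chosen for passing with both, the median difference of those that rose was 0.355 with NaB and 0.314 with TSA, and that of the genes that fell was -0.246 and -0.265. In 434 of the 841 shared genes the NaB difference was the larger. In 626 of the 841 neither the direct nor the slot-adjusted difference passed the threshold. By their mean level the risen genes were lower (median 6.14 on the log2 scale) and the fallen genes higher (9.41) than all genes tested (8.08). Of the shared genes, 51 rose and 21 fell by more than 0.5 log2 units with both.

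Pla2g7 rose most in both, by 1.14 with NaB and 0.99 with TSA, but its mean of 5.83 was below the 6 required of named genes. Among genes that reached this mean, L1cam headed those that rose in both. This cell adhesion molecule of axons (ENSMUSG00000031391, chrX:73853778-73896105, minus strand, overlapping Arhgap4 and Avpr2) had 7.80, 7.99 and 7.85 in the 3 NaB libraries and 8.19, 7.64 and 7.83 in the TSA libraries. Its values were 6.70 to 7.05 in the 6 Nico and Nort libraries, 6.97, 7.07 and 7.0 with Halo, and 6.98, 6.71 and 6.86 with vehicle. Every library of both inhibitors was above every reference and vehicle library. The difference was 1.03 ± 0.15 (SE) with NaB (adjusted p = 8.4e-07) and 0.87 ± 0.17 with TSA (adjusted p = 0.00049). The direct difference was -0.01, with a 95% interval from -0.35 to 0.33.

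Uchl1, a ubiquitin hydrolase abundant in neurons (chr5:66676091-66687234, plus strand, overlapping Uchl1os on the other strand), had 8.55, 8.52 and 8.21 with NaB and 8.84, 8.33 and 8.47 with TSA. Its reference values were 7.47 to 7.65 with Nico and Nort and 7.62, 7.64 and 7.66 with Halo. The inhibitor and reference libraries did not overlap. The difference was 0.86 ± 0.091 with NaB (adjusted p = 2.3e-09) and 0.91 ± 0.1 with TSA (adjusted p = 2.9e-07). NaB and TSA themselves overlapped, and the interval of their difference ran from -0.33 to 0.09.

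Ndrg2, a stress-responsive gene of astrocytes and neurons (chr14:51905271-51914158, minus strand), had 7.64, 7.75 and 7.47 with NaB and 7.31, 6.78 and 7.07 with TSA. The Halo libraries were at 6.42, 6.37 and 6.27. Here both inhibitors were above their references but NaB was also above TSA in every library, with a direct difference of 0.57 ± 0.1 (adjusted p = 7.3e-05) and a slot-adjusted difference of 0.51 (adjusted p = 0.017).

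Several of the other named genes that rose encode enzymes. Gsta4, the glutathione transferase that clears lipid peroxidation products (chr9:78182774-78209349, plus strand), rose by 0.96 with NaB and 0.75 with TSA, from levels of 7.71 with Nico and Nort and 7.39 with Halo. Mgst1, the microsomal glutathione transferase, rose by 0.59 and 0.60. Sord, which turns sorbitol into fructose, rose by 0.79 and 0.59. The other named genes that rose were Fbxo2, a ubiquitin ligase subunit that recognises glycoproteins (0.77 and 0.64), Cadm4, an adhesion molecule of myelinating cells (0.84 and 0.59), C1s1 of the complement cascade (0.97 and 0.58) and Tmsb4x, which sequesters actin monomers (0.63 and 0.58). These 10 genes were taken by the size of the smaller of their 2 differences among 259 shared risen genes that averaged 6 or more and had every inhibitor library on 1 side of the reference. All 10 also passed without haloperidol replicate 2.

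Among genes that fell, Cyp26b1, which degrades retinoic acid (ENSMUSG00000063415, chr6:84571414-84593908, minus strand), had 7.37, 7.64 and 7.63 with NaB and 7.21, 7.37 and 7.56 with TSA. It was at 8.21 to 8.70 in the Nico and Nort libraries, at 8.46, 8.24 and 8.43 with Halo, and at 8.30, 8.18 and 8.30 with vehicle. No inhibitor library reached the lowest of these. The difference was -0.85 ± 0.15 with NaB (adjusted p = 3.2e-05) and -1 ± 0.17 with TSA (adjusted p = 0.00013), and the direct difference lay between -0.19 and 0.51.

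Cdkn1a encodes p21, the inhibitor of cyclin-dependent kinases that deacetylase inhibitors are best known for inducing (ENSMUSG00000023067, chr17:29090976-29100727, plus strand, overlapping AC167363.2 on the other strand). Here it was lower with both. Its values were 9.21, 9.52 and 9.38 with NaB and 9.05, 9.42 and 9.27 with TSA, against 9.85 to 10.15 with Nico and Nort, 10.06, 9.90 and 9.80 with Halo, and 9.91, 9.75 and 9.82 with vehicle. All 6 inhibitor libraries were below all 12 others. The difference was -0.61 ± 0.096 with NaB (adjusted p = 6.1e-06) and -0.68 ± 0.11 with TSA (adjusted p = 6.5e-05), and NaB and TSA differed by 0.12, with an interval from -0.10 to 0.35.

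Further named genes that fell were Sulf2, a sulfatase that edits heparan sulfate (-0.68 with NaB and -0.74 with TSA), Dlk2, a Notch pathway antagonist (-0.66 and -0.81), Psmb10, an immunoproteasome subunit (-1.14 and -0.65), and Mest, an imprinted gene (-0.62 and -0.66) that overlaps Copg2 on the other strand. Fam212b fell by 0.81 and 0.61, 9030617O03Rik by 0.65 and 0.59, and Eda2r, a receptor of the tumour necrosis factor family, by 1.01 and 0.59. Fbn2, a fibrillin whose row also carries a second symbol, was at -0.60 and -0.61. All 10 passed without haloperidol replicate 2 as well. Eda2r was also lower with NaB than with TSA directly (-0.48, adjusted p = 0.0068), but its slot-adjusted difference of -0.42 did not pass (adjusted p = 0.18).

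**Figure D2:**
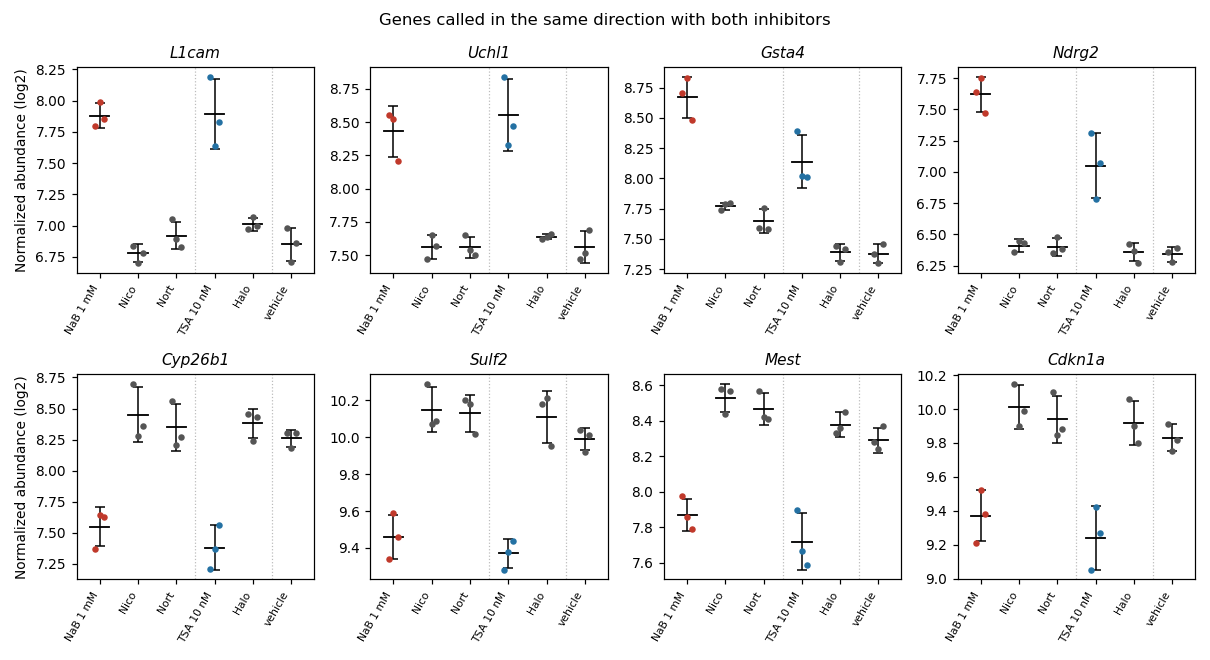
Normalised abundance (log2) of 8 genes called in the same direction with both inhibitors, 1 point per library, with the mean as a bar and the SD of 3 libraries as whiskers, and a y axis that does not start at 0. In the top row every NaB and TSA library lies above the Nico, Nort, Halo and vehicle libraries, and in the bottom row every one lies below them.

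Lists of genes were then read by the roles of their members, each count to be set against the share of all genes called. Over all genes tested, NaB was higher in 17% and lower in 13.8%, and TSA higher in 5.85% and lower in 5.27%. The direct comparison called 12.6% as higher with NaB and 11.1% as lower, and the slot-adjusted comparison 3.03% and 1.07%. The enzymes that both drugs inhibit came first. Of 11 zinc-dependent deacetylases tested, NaB was higher for Hdac1 and Hdac11 and lower for Hdac10, TSA was lower for Hdac7 and Hdac9, and none moved alike. Hdac1, a nuclear class I enzyme, had 10.78, 10.79 and 10.80 with NaB, 10.48 to 10.65 with Nico and Nort, 10.61, 10.48 and 10.57 with TSA, and 10.60, 10.54 and 10.73 with Halo. Its vehicle libraries were at 10.74, 10.73 and 10.79, so the NaB difference of 0.21 ± 0.045 (adjusted p = 5e-04) became 0.04 against vehicle.

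Hdac7, a class IIa enzyme, had 9.31, 9.29 and 9.35 with TSA against 9.53, 9.57 and 9.52 with Halo and 9.54, 9.59 and 9.57 with NaB. TSA was below all of them, by -0.23 ± 0.047 (adjusted p = 0.0013), and the direct difference was 0.25 (adjusted p = 0.00016). For Hdac9, haloperidol replicate 2 was at 3.93 and the other two at 3.29 and 3.24, and without it the TSA difference went from -0.37 to -0.14 (adjusted p = 0.32). Hdac11 was the one with the largest NaB difference of the 11, 0.54 ± 0.092 (adjusted p = 1.9e-05), where TSA had 0.23 (adjusted p = 0.18) and the direct difference of 0.40 passed (adjusted p = 0.0051).

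**Figure D3:**
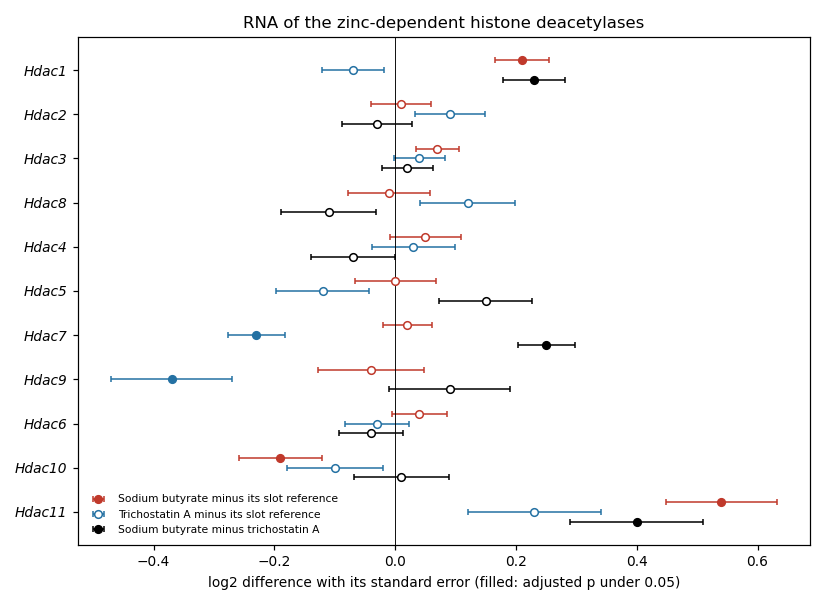
Differences in log2 units with their standard errors for the 11 zinc-dependent histone deacetylases, filled where the adjusted p is under 0.05. Hdac1, Hdac10 and Hdac11 are filled for butyrate, Hdac7 and Hdac9 for trichostatin A (Hdac9 loses its call without haloperidol replicate 2), and Hdac1, Hdac7 and Hdac11 for the direct difference.

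Of 29 corepressor subunits, NaB was higher in 4 and lower in 5 (17% and 13.8% of all genes). TSA was higher in 1 and lower in 2 (5.85% and 5.27%). The direct difference passed in 4, all higher with NaB (12.6% of all genes were). Rcor2, a CoREST scaffold, was at 0.66 with NaB and 0.20 with TSA, and Tbl1xr1 of the NCoR complex at 0.33 and -0.16, with slot-adjusted differences of 0.46 and 0.49 that both passed. Mta3 of the NuRD complex was the 1 member that moved alike (0.28 and 0.20), and its TSA call was lost without haloperidol replicate 2 (adjusted p = 0.14). Of the 21 acetyltransferases and bromodomain readers, 9 were lower (13.8% of all genes) and 1 higher (17%) with NaB. With TSA 2 were lower (5.27%). Those 2, Brd2 (-0.18 with both) and Kat6a (-0.19 and -0.27), moved alike with and without the library that stood apart. Ep300 and Crebbp, the paired acetyltransferases, were at -0.25 and -0.21 with NaB, and at -0.16 and -0.14 with TSA without passing.

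Of 32 REST target and neuronal genes 29 were present in the data, and only 18 reached the mean of 1 and were tested. Snap25, Scg2 and Nefl were among those not tested. NaB was higher in 9 of the 18 (17% of all genes) and TSA in 7 (5.85%). None was lower, and 6 rose with both (3.78% of all genes). Besides L1cam and Uchl1 these were Stmn2, a growth-cone microtubule regulator (0.75 with NaB and 0.82 with TSA), Tubb3, neuronal tubulin (0.28 and 0.33), Syn1 of synaptic vesicles (0.32 and 0.68) and Mapt, which encodes tau (0.30 and 0.15). Without haloperidol replicate 2 TSA was higher in 6 and 5 moved alike, since Mapt did not pass (adjusted p = 0.057). Kif1a, the axonal transport motor, rose with TSA (0.70) and was at 0.23 with NaB. Syn1 had 3.74, 3.94 and 3.82 with NaB and 4.38, 4.04 and 4.27 with TSA, so that TSA was above NaB in every library, by 0.40 in the direct comparison (adjusted p = 0.00053). Its slot-adjusted difference of -0.36 did not pass (adjusted p = 0.052, and 0.11 without that library). Against vehicle, NaB was higher in 8 of the 18 (19.6% of all genes) and TSA in 7 (6.41%). The list was chosen with earlier results of these data known.

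Genes listed here as induced by deacetylase inhibitors, a list chosen with earlier results of these data known, did not move as 1 group. Of 30 tested, 13 were higher and 3 lower with NaB (17% and 13.8% of all genes). With TSA 6 were higher and 7 lower (5.85% and 5.27%), or 6 and 4 without haloperidol replicate 2. Of the 30, 6 rose in both: Clu, H1f0, Hist1h1c, Tubb3, Epas1 and Stmn2. Tubb3 and Stmn2 are also in the REST target list, and H1f0 and Hist1h1c are also in the histone list. Cdkn1a and Hspa1b fell in both. H1f0, the linker histone of resting cells, had 12.19, 12.14 and 12.05 with NaB, 12.06, 11.60 and 11.72 with TSA and 11.32, 11.33 and 11.39 with Halo, and rose by 0.72 and 0.45. Epas1, a hypoxia-inducible factor, rose by 0.54 and 0.53. The members that TSA lowered alone were Cdkn2b, Klf4, Klf6, Gsn and Thbs1, of which Klf4, Klf6 and Thbs1 did not pass without that library.

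Clu, the secreted chaperone clusterin, had the largest slot-adjusted difference in this list. It had 6.90, 6.98 and 6.92 with NaB, 6.00, 5.77 and 5.56 with TSA, 5.22, 5.38 and 5.28 with Halo and 5.09 to 5.44 with Nico and Nort. Every TSA library was above the references and below every NaB library. The difference was 1.69 ± 0.07 with NaB (adjusted p = 2.6e-20) and 0.48 ± 0.081 with TSA (adjusted p = 7.9e-05), and the slot-adjusted difference was 1.21 (adjusted p = 1.8e-09). Txnip, an inhibitor of thioredoxin that responds to glucose, was higher with NaB (0.95, adjusted p = 5.7e-10) and at 0.11 with TSA (adjusted p = 0.57), with a slot-adjusted difference of 0.84 (adjusted p = 0.00029).

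Few growth genes fell. Of 18 genes known to fall with deacetylase inhibitors, 6 were higher and 1 lower with NaB and 2 higher with TSA, those 2 being Tyms and Cdk1, which also rose with NaB. Only Cdk1 of the 18 passed with TSA without haloperidol replicate 2, and Tyms did not (adjusted p = 0.15). Cdk1, the mitotic kinase, had 11.25, 11.22 and 11.19 with NaB, 11.18, 11.02 and 11.14 with TSA and 10.88 to 10.96 over the Nico, Nort and Halo libraries. The 6 inhibitor libraries were above the 9 references. Of 32 replication and mitosis genes, 12 were higher and 2 lower with NaB and 4 were higher with TSA (2 without haloperidol replicate 2). Over all genes NaB was higher in 17% and lower in 13.8%, and TSA was higher in 5.85% and lower in 5.27%. Against vehicle, NaB was higher in 7 of the 32 (19.6% of all genes) and lower in 4 (17.8%). TSA was higher than vehicle in 1 (6.41%). Top2a, the mitotic topoisomerase, was higher with NaB than in its slot reference by 0.37 (adjusted p = 7.1e-05) and at 0.15 with TSA (adjusted p = 0.24). The 21 histone genes in polyadenylated RNA gave 7 higher and 1 lower with NaB and 3 higher with TSA, and those 3, H1f0, Hist1h1c and H2afz, rose in both with and without that library.

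Genes of fuel use were called more often with NaB, as were genes overall. Of 33 genes of fatty acid oxidation and butyrate handling, 8 were higher and 3 lower with NaB (17% and 13.8% of all genes). With TSA only Hadh passed as higher and Angptl4 as lower (5.85% and 5.27% of all genes). The TSA call of Angptl4 was kept without haloperidol replicate 2 and that of Hadh was lost (adjusted p = 0.1). In the direct comparison 10 were higher with NaB (12.6% of all genes were) and 1 lower (11.1% of all genes were). The slot-adjusted comparison called 4 as higher (3.03% of all genes were), or 2 without haloperidol replicate 2. Hadh, an enzyme of short-chain fatty acid oxidation, rose by 0.38 with NaB, and Slc16a1, a monocarboxylate transporter that carries butyrate, by 0.37. Eci1 and Oxct1, the latter an enzyme of ketone use, fell with NaB by 0.35 and 0.20. Acot1, a thioesterase of fatty acyl-CoA, was 0.58 higher with NaB and at 0 with TSA, with a slot-adjusted difference of 0.57 (adjusted p = 0.012, and 0.051 without that library). Angptl4, a lipoprotein lipase inhibitor, was at 0.00 with NaB and fell by 0.69 with TSA.

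Of 25 sterol synthesis genes 9 were lower with NaB (13.8% of all genes) and 4 with TSA (5.27%), or 1 without haloperidol replicate 2. None of the 25 was higher. Mvk, mevalonate kinase, fell by 0.28 with NaB (adjusted p = 0.0012) and was at -0.17 with TSA (adjusted p = 0.16). The 30 ATF4 target genes respond to amino acid and endoplasmic reticulum stress. Of these, 10 were higher (17% of all genes) and 1 lower with NaB. With TSA 3 were higher (5.85%), or 2 without that library. Atf3 had 8.21, 8.27 and 8.10 with NaB, 7.76, 8.12 and 7.19 with TSA and 7.27, 7.32 and 7.11 with Halo, so that 1 TSA library lay among the references. The 20 heat shock chaperones gave 4 higher and 3 lower with NaB (17% and 13.8% of all genes). With TSA 1 was higher and 3 lower (5.85% and 5.27%). Hspb8 rose (0.23 and 0.35) while Hspa1b (-0.23 and -0.35) and Hsph1 (-0.16 and -0.20) fell with both. None of the 13 mitochondrially encoded protein genes passed with either inhibitor, and 1, ND6, passed in the direct comparison.

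Of 30 matrix and TGF-beta response genes, 6 were higher (17% of all genes) and none lower (13.8%) with NaB. With TSA 2 were higher (5.85%) and 9 lower (5.27%). The direct comparison called 11 of the 30, all higher with NaB (12.6% of all genes), and the slot-adjusted comparison called 6, all higher with NaB (3.03% of all genes). Without haloperidol replicate 2, TSA was lower in 4 and higher in 0, and the slot-adjusted comparison called 2. Against vehicle, NaB was higher in 6 of the 30 (19.6% of all genes) and lower in 2 (17.8%). TSA was higher than vehicle in 3 (6.41%) and lower in 5 (6.68%). Sparc, a collagen-binding matrix protein, had 13.27, 13.17 and 13.33 with TSA and 13.47 to 13.61 over the Halo, Nico and Nort libraries, while NaB was at 13.57, 13.58 and 13.56. Its TSA difference was -0.24 (adjusted p = 0.028, and 0.085 without that library). Fbn1, the fibrillin of microfibrils, fell with TSA by 0.39 (adjusted p = 0.00073) and was at 0.03 with NaB. Col1a1 was 0.46 higher with NaB than with TSA directly (adjusted p = 0.004), and its slot-adjusted difference of 0.44 did not pass (adjusted p = 0.10).

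The interferon list depended on the reference. Of 30 interferon-stimulated genes, 15 were lower (13.8% of all genes) and 1 higher with NaB, and 2 were lower (5.27%) and 1 higher with TSA. Ifit3, an antiviral effector, had 10.81, 10.55 and 10.66 with NaB and 10.46, 10.42 and 10.42 with TSA. It was at 11.31 to 11.69 with Nico and Nort and at 11.04, 10.85 and 11.14 with Halo. The Nico and Nort libraries were therefore above the Halo libraries, and over the list the median of the references' difference was 0.383, with 6 genes called, all higher. There were 0 such calls without haloperidol replicate 2, and 1 gene was lower with TSA, Ifit3, while Parp14 did not pass (adjusted p = 0.083). That comparison of Nico and Nort with Halo called 438 genes as higher (3.27%) and 751 as lower (5.6%) over all genes, and 12 and 37 without haloperidol replicate 2. Against vehicle, NaB was lower in 3 of the 30 (17.8% of all genes) and TSA in 4 (6.68%). Ifi27 was the member that rose with both, by 0.60 and 0.34, and its TSA call was lost without that library (adjusted p = 0.077).

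**Figure D4:**
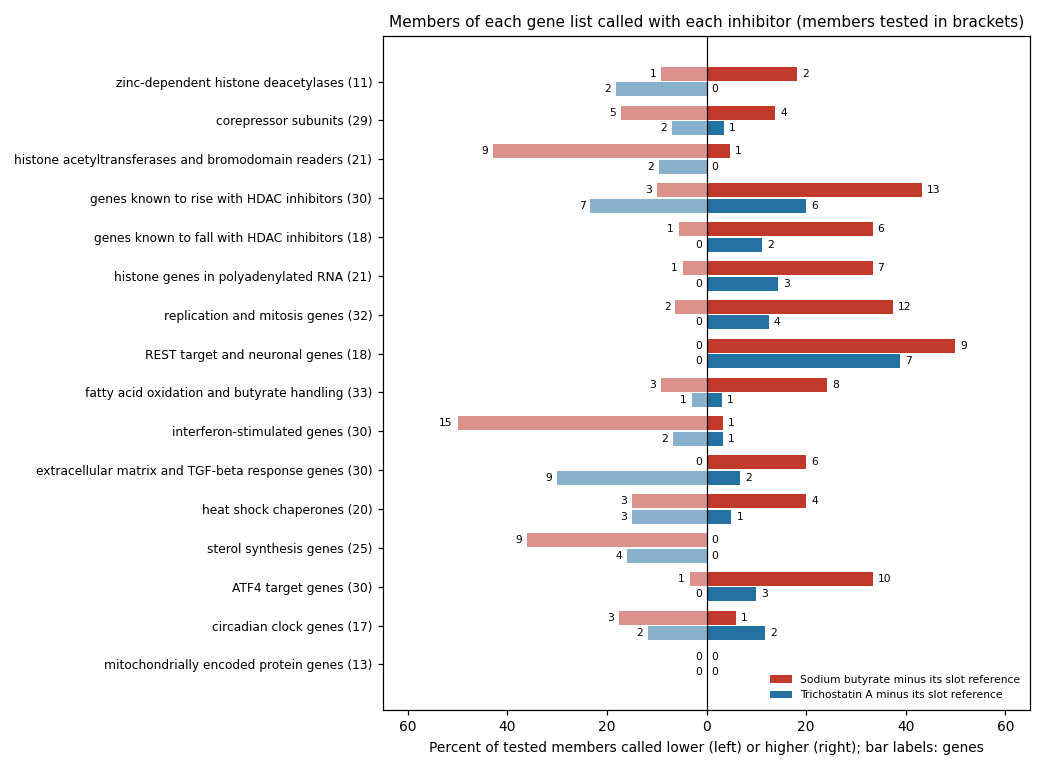
Percent of the tested members of each gene list called lower (left) or higher (right) with sodium butyrate (red) and trichostatin A (blue) against the slot reference, with the number of genes at each bar. The REST target and neuronal list has 9 and 7 of 18 members higher and none lower, and the matrix list has 6 higher with butyrate and 9 lower with trichostatin A (4 without haloperidol replicate 2).

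The direct comparison called 3180 genes, 1693 higher with NaB (12.6%) and 1487 higher with TSA (11.1%). This contrast includes the difference between slots, and 502 of its genes were also called in the same direction between the slot references, or 31 of 3142 without haloperidol replicate 2. The slot-adjusted comparison, which has a wider median half-width of 0.188 log2 units, called 549 genes, of which 406 were higher with NaB (3.03%) and 143 lower (1.07%). Centring each library on its median gave 531 higher and 99 lower in place of 406 and 143. Without haloperidol replicate 2 there were 274 and 89. Both comparisons called 486 genes in the same direction, 364 higher with NaB and 122 lower, and 348 (266 and 82) without that library. Of the 364, 263 passed with NaB alone, 47 with TSA alone and 51 with both. Of the 122, 83 passed with NaB alone, 25 with TSA alone and 7 with both. Leaving out haloperidol replicate 2, these were 205, 31 and 27 of the 266, and 57, 18 and 5 of the 82.

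Eno3, the muscle enolase of glycolysis (chr11:70657202-70662513, plus strand), differed most. It had 7.88, 7.88 and 7.62 with NaB and 6.34, 6.24 and 6.16 with TSA. The references were at 6.18 to 6.43 with Nico and Nort and at 6.20, 6.28 and 6.21 with Halo. TSA thus sat with the references (0.01, adjusted p = 0.96) while NaB stood above all of them (1.46 ± 0.086, adjusted p = 1.2e-15). The direct difference was 1.55 ± 0.099 (adjusted p = 7.7e-14) and the slot-adjusted difference 1.45 (adjusted p = 1.8e-09).

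Aqp1, a water channel (chr6:55336432-55348555, plus strand), moved in opposite directions. It had 10.33, 10.36 and 10.25 with NaB, 9.60 to 9.77 with Nico and Nort, 9.63, 9.51 and 9.47 with Halo, and 9.06, 8.80 and 8.80 with TSA. Every reference library lay between the NaB and the TSA libraries. The difference was 0.61 ± 0.13 with NaB (adjusted p = 0.00036) and -0.65 ± 0.15 with TSA (adjusted p = 0.0034), and the direct difference was 1.43 ± 0.15 (adjusted p = 8.3e-09). Spp1, the matrix cytokine osteopontin, had 9.47, 9.56 and 9.71 with NaB and 8.15, 8.24 and 8.22 with TSA, with Halo at 8.55, 8.84 and 8.74. Its NaB difference of 0.78 passed (adjusted p = 5.6e-05), and its TSA difference of -0.51 (adjusted p = 0.038) did not without haloperidol replicate 2 (-0.45, adjusted p = 0.14).

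Further named genes higher with NaB, with their direct differences, were Olfml3 (1.10), a secreted matrix protein, Id1 (1.07), which blocks basic helix-loop-helix factors, the chemokines Cxcl1 (1.07) and Cxcl12 (0.97), the kinase Dmpk (0.99) and Tmem119 (0.92). Olfml3 had 8.04, 8.08 and 7.84 with NaB and 6.97, 6.77 and 6.93 with TSA, and the Halo libraries were at 6.97, 6.93 and 7.19. For each of these 6 genes the NaB difference passed and the TSA difference did not. The slot-adjusted difference of Tmem119 did not pass without haloperidol replicate 2 (0.66, adjusted p = 0.052).

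Lrp11, a member of the lipoprotein receptor family (chr10:7589800-7625483, plus strand), had the largest direct difference among genes lower with NaB. It had 8.22, 7.82 and 7.93 with TSA, 7.29, 7.39 and 7.20 with Halo, 7.0 to 7.15 with Nico and Nort and 6.76, 6.96 and 6.84 with NaB. TSA was above and NaB below every reference library. The TSA difference was 0.69 ± 0.079 (adjusted p = 2.9e-07), the NaB difference -0.22 ± 0.068 (adjusted p = 0.013), and the direct difference -1.13 ± 0.079 (adjusted p = 3.3e-13).

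Btn1a1, a butyrophilin, showed the same order of means, with 7.53, 7.40 and 7.45 with TSA, 6.86, 6.97 and 6.91 with Halo and 6.50, 6.74 and 6.87 with NaB. Its differences were 0.54 with TSA (adjusted p = 0.00032) and -0.34 with NaB (adjusted p = 0.0028). Ank2, the ankyrin that anchors membrane proteins to the axonal skeleton, rose with TSA (0.47, adjusted p = 0.00027) and was at 0.06 with NaB, and Fam171b was at 0.49 and 0.14. Further named genes were Gbe1, the glycogen branching enzyme, Utp20, a ribosome assembly factor, Gfra1, a receptor for GDNF, and Phf19, a Polycomb subunit, each of which fell with NaB without passing for TSA, and Tfcp2l1, which rose with TSA (0.31) and was at -0.18 with NaB. Their direct differences ran from -0.52 (Phf19) to -0.57 (Gbe1).

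**Figure D5:**
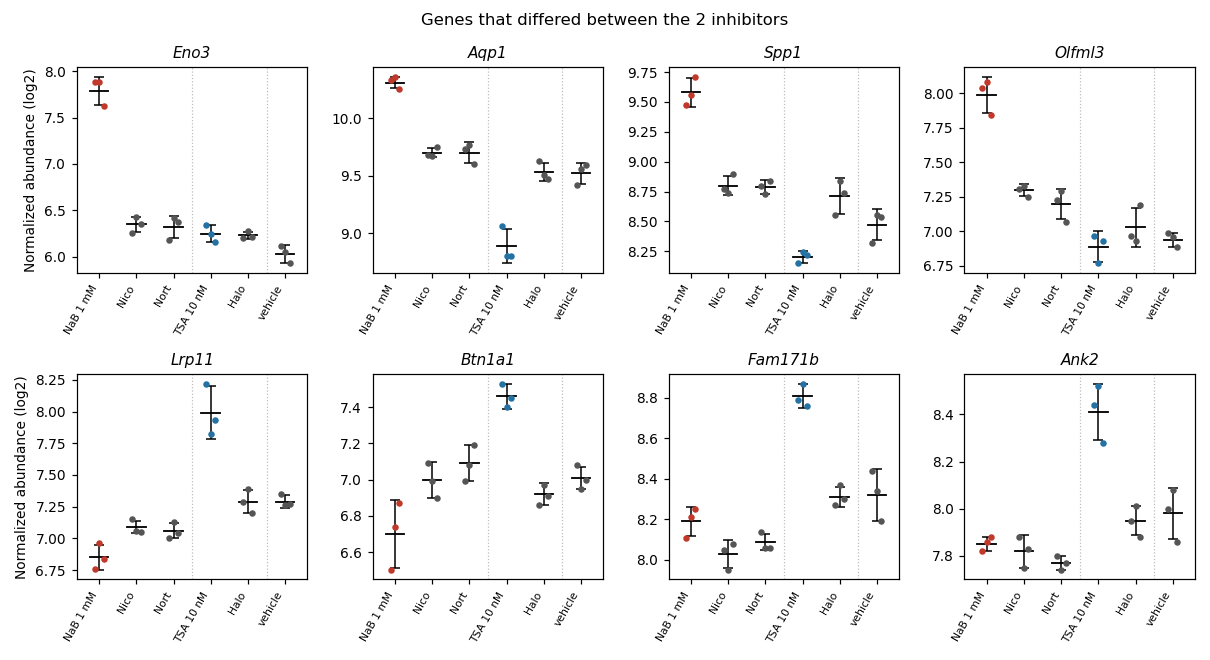
Normalised abundance (log2) of 8 genes that differed between the inhibitors, 1 point per library, with the mean as a bar and the SD of 3 libraries as whiskers, and a y axis that does not start at 0. The NaB libraries lie above the TSA libraries in the top row and below them in the bottom row.

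Of the 21 genes called in opposite directions, named after their values were seen, 16 were higher with NaB and lower with TSA, among them Aqp1, Spp1, Apobr, Shroom3, Pdlim2, Pdgfb, Gper1, Plpp3, Col5a1, Sh3bp4, Csf1, Socs5, Fgfr1, Gramd4 and Aknad1. The other 5, Btn1a1, Lrp11, Galnt13, Coq7 and Cr1l, were higher with TSA. Without haloperidol replicate 2, 7 kept the call, among them Aqp1, Apobr, Gramd4, Aknad1, Btn1a1 and Lrp11, and Abca4 and Pxn were added. For Pdgfb, a platelet growth factor chain, that library was at 3.55 and the other two Halo libraries at 2.89 and 3.00, and its TSA difference went from -0.26 to -0.05 without it. Apobr, a lipoprotein receptor of macrophages, was at 0.39 with NaB (adjusted p = 7.3e-05) and -0.37 with TSA (adjusted p = 0.0027).

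Finally the shared genes were read in a contrast that neither rule nor reference used, STHdhQ7 against STHdhQ111 vehicle cells, which tests the huntingtin genotype together with everything else that differs between the 2 lines. STHdhQ7 was higher in 3916 of all genes tested (29.2%) and lower in 3567 (26.6%). Of the 507 genes that rose with both inhibitors, 188 (37.1%) were higher and 144 (28.4%) lower in STHdhQ7, and of the 334 that fell, 104 (31.1%) were higher and 145 (43.4%) lower. With the shared genes taken without haloperidol replicate 2, whose Q7-high genes were raised, the 393 risen genes had 174 (44.3%) higher and 81 (20.6%) lower, and the 235 fallen genes 56 (23.8%) higher and 113 (48.1%) lower. These are counts beside a background and no test was made of them. Members went both ways: L1cam was 1.75 higher in STHdhQ7 and Uchl1 0.61 higher, while Cyp26b1 was 0.82 lower (-0.82) and Mest 1.05 lower (-1.05). Cdkn1a fell with both inhibitors and was 0.89 higher in STHdhQ7, and Mgst1 rose with both and was at -0.61.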

How the data were processed

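RNA-Seq was run on polyadenylated RNA of 48 STHdh cultures, as directional single-end libraries of 50 bases. Per the submitters' processing notes, the authors trimmed reads with Trimmomatic 0.36, estimated abundance with RSEM on GRCm38.p5 and used DESeq2. The deposited table gives each gene a log2 normalised abundance, made by the authors with a transformation not given in the sources used here, so a difference of log2 values may understate the change of low genes. No counts were used and the depth is unknown, so the number of replicates limits the precision. The strand setting of the counting is not given in the sources used here, so genes that overlap others are uncertain.

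All 48 libraries (16 conditions of 3) were fitted in limma 3.58.1 under R 4.3.3 with condition and collection day as terms, 30 residual degrees of freedom and a variance trend, on genes with a symbol and a mean of at least 1. Adjusted p-values are Benjamini-Hochberg over 13409 genes, with a threshold of 0.05 and two-sided tests. The median residual SD was 0.086. Named genes had a mean of at least 6 and were the 10 with the largest shared or direct differences in each direction, plus up to 4 members per gene list by adjusted p, all deacetylases tested and Cdkn1a, and some of the genes chosen in this way are not reported here. Members, lists and named-gene rules were chosen with earlier results of these data known. Gene positions are from GENCODE M21 on GRCm38. Alternatives were other filters, references, terms, centring and left-out libraries. The fit was also run on simulated data, with changes of 0.5 log2 units planted in genes with a mean of at least 6. Of 200 planted equal changes 188 were called alike and none falsely. Of 200 planted changes in butyrate alone 192 were called in the direct comparison. The simulated noise was independent, without an effect of the day and without a library that stood apart. Most of the shared genes changed by less than the planted size, so these rates do not describe the shared list. No columns of other samples were present (0). The STHdhQ7 comparison and the fits without haloperidol replicate 2 were added after seeing the data.

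Samples of the compared compounds carrying the same replicate number were collected on the same day. Their deviations from the group means correlated by -0.0992 (NaB with Nico), 0.018 (NaB with Nort), -0.0197 (Nico with Nort), 0.00679 (TSA with Halo) and 0.00535 (NaB with TSA), and the collection day stayed in the model as a term.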

Additional observations from a re-analysis of the deposited data

How the results depend on the processing

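Counts of calls kept within 1.5 times of the main value under most alternatives. With a mean of at least 6 the slot-adjusted comparison called 326 genes, and the share of higher genes fell to 44.3% for NaB, 41.2% for TSA and 44.9% among genes that moved alike (60.3% before). At an adjusted p under 0.01 in both, 390 genes moved alike. With haloperidol and fingolimod phosphate together as the reference of TSA, 1931 genes were called for TSA. In that setting 1114 genes moved alike and the slot-adjusted comparison called 660. Between the slot references, 131 genes were called with nortriptyline alone and 2159 with only the compared samples in the fit. With vehicle as the reference of both inhibitors 1168 genes moved alike, 612 of them shared with the main list and 48.1% higher. Both differences then subtract the same vehicle libraries, so that overlap between the inhibitors is not a result. With only the compared samples in the fit 50.1% of the genes that moved alike were higher. With the vehicle reference Penk went from -0.18 to 0.01 with NaB and Pdgfb from -0.26 to 0.12 with TSA. The cause was not tested.

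Leaving out 1 library of the groups compared gave 2104 (without TSA replicate 2) to 3042 direct calls, 584 (without TSA replicate 1) to 1343 calls for TSA, 289 (without TSA replicate 2) to 585 slot-adjusted calls, 49 (without haloperidol replicate 2) to 1156 calls between the references and 343 (without TSA replicate 1) to 822 genes alike. Other libraries that moved a count by over 1.5 times were haloperidol replicate 3 (961 for TSA, 547 alike and 456 between the references), haloperidol replicate 2 (363 slot-adjusted), butyrate replicate 2 (342 slot-adjusted), nicotinamide replicate 2 (520 between the references) and nortriptyline replicate 1 (744 between the references).

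With the replicate number as a replicate block in place of the day, 856 genes moved alike, and without any replicate block 961 did, and no count moved by over 1.5 times. Of 4223 values of named genes over 217 gene comparisons, 3918 kept their direction and side of the threshold, 303 kept the direction without passing and 2 turned.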

Other observations

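The table also held 9103 identifiers without a symbol, of which 2205 reached a mean of 1. Tested beside the others, 187 of these were called with NaB and 45 with TSA, and 9 rose and 8 fell with both inhibitors.

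Clock genes, which the collection times could touch, were read in the same way. Of 17 tested, 1 was higher and 3 lower with NaB (17% and 13.8% of all genes). With TSA 2 were higher and 2 lower (5.85% and 5.27%), or 0 and 2 without haloperidol replicate 2. Per1, a repressor of the clock, had 7.94, 8.04 and 7.93 with NaB, 8.0, 8.03 and 8.10 with TSA and 8.27 to 8.44 over the Nico, Nort and Halo libraries, and fell by 0.33 and 0.34. All 6 inhibitor libraries were below all 9 references. Arntl, the activator of the clock, had 6.62, 6.75 and 6.77 with TSA against 6.97, 7.03 and 7.03 with Halo, and its slot-adjusted difference was 0.38 (limma, adjusted p = 0.013). The direct comparison does not match the slots. It called 2 of the 17 as higher and 6 as lower with NaB (12.6% and 11.1% of all genes).

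Of the 7 neural progenitor markers tested, 1 was higher and 2 were lower with NaB (17% and 13.8% of all genes). With TSA 3 were lower (5.27%), or 2 without haloperidol replicate 2. Nes, the 1 that rose with NaB, had a difference of 1.21 (adjusted p = 0.0016) and was at -0.42 with TSA (adjusted p = 0.47), or 0.33 without that library (adjusted p = 0.53). Among other cell type markers, Pdgfra, a receptor of mesenchymal and oligodendrocyte precursors, rose by 0.51 with NaB and 0.27 with TSA. Of the progenitor markers, Dlx2, a homeobox gene of striatal progenitors, had 4.99, 5.00 and 5.06 with NaB and 5.40, 5.59 and 5.32 with TSA, and was at -0.39 with NaB (adjusted p = 2.5e-05) and -0.04 with TSA (adjusted p = 0.81). Sox9 was at -0.14 with NaB (adjusted p = 0.099) and fell by 0.41 with TSA (adjusted p = 0.00026).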
